A study of Homo sapiens with 4 samples.

Results

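CenU codes 97 to 128 are 32 position codes (PCs), short synthetic tags of which each marks 1 repeat unit of a human artificial chromosome (HAC). They were chosen by name, as the 32 references called T with a number from 97 to 128, out of 128 T references and 512 references in all (128 T and 384 L). The input DNA of the clone HAC 1-20 held these units, whereas that of the clone HAC 4-65 did not. Both clones are single lines of HT1080, an established human fibrosarcoma line, that were transfected with HAC input DNA and selected with Geneticin, and the labels give no further treatment. Total RNA of each line was either reverse transcribed (RT plus) or left without reverse transcriptase (RT minus), the codes were amplified in parallel with 1 common primer pair, and the reads of each code were counted. The 4 groups that result, with and without reverse transcriptase in each line, held 1 library each, so differences below are between single libraries, without replicates or p-values.

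Alphoid DNA is the tandem repeat of human centromeres. Some of its units carry the CENP-B box, a motif bound by the protein CENP-B, and centromeric nucleosomes hold the histone H3 variant CENP-A. CenU is the synthetic unit with functional CENP-B boxes and NCU its counterpart with mutated boxes. Centromeric repeats are transcribed at a low level, and a library made without reverse transcriptase shows how much of the product came from contaminating DNA. The reading of T references as CenU and of L references 1 to 96 as NCU follows from the reference names and is not stated in the count files.

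Each code is 23 bases long and is built on 1 frame, in which a letter pair at positions 9 and 10 splits the members into 2 sets of 16 and an inner pair at positions 14 and 15, repeated at positions 19 and 20, separates the 16 units of each set. Positions are counted from 1 at the 5′ end of the code, and capitals mark both pairs. The sequences come from the study's supplementary list. The 7 codes from CenU 104 to CenU 110 are shown because they form the run of high codes described below, CenU 102 and CenU 111 because they bound it, CenU 103 and CenU 127 because they were nearly without reads, and CenU 120 because it has the inner pair of CenU 104 in the other set.
CenU 102: ggggaaaaTGcccTTtttTTggg
CenU 103: ggggaaaaTGcccTGtttTGggg
CenU 104: ggggaaaaTGcccTCtttTCggg
CenU 105: ggggaaaaTGcccGAtttGAggg
CenU 106: ggggaaaaTGcccGTtttGTggg
CenU 107: ggggaaaaTGcccGGtttGGggg
CenU 108: ggggaaaaTGcccGCtttGCggg
CenU 109: ggggaaaaTGcccCAtttCAggg
CenU 110: ggggaaaaTGcccCTtttCTggg
CenU 111: ggggaaaaTGcccCCtttCCggg
CenU 120: ggggaaaaTCcccTCtttTCggg
CenU 127: ggggaaaaTCcccCCtttCCggg
Each member has 4 other listed codes that lie 1 base away from it. The synthetic units have no place in a human genome build, so a code's place is its number in the input DNA or its order on a contig.

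The HAC 1-20 libraries held 248904 (RT minus) and 749846 (RT plus) T and L reads, and those of HAC 4-65 held 713705 and 683916. The 32 members took 6.90% of the reads in HAC 1-20 RT minus (95% exact binomial interval 6.797 to 6.996) and 8.22% in HAC 1-20 RT plus (8.15 to 8.28). Since the PCR products carried no molecular identifiers, a read is not an independent molecule, and all intervals and standard errors (SE) cover counting error only.

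The first question was how evenly the members were held as DNA, for which the RT minus library was used. In HAC 1-20 RT minus the median member had 461.5 reads, 2 members were nearly without reads, 22 lay between 0.74 and 1.45 times the median, and 8 had at least 1.5 times the median. CenU 103 and CenU 127 had 2 reads each (exact Poisson interval 0.24 to 7.22), or 0.43% of the median member, which is under the limit of 3 counts that a count of 0 allows. In HAC 1-20 RT plus they had 4 and 10 reads, against 15 and 12 reads in HAC 4-65 RT plus, where the units were not in the input. Both codes were thus at the read level of an absent unit in each library, although the input held them. This does not show that the units are missing from the HAC, as the letters of CenU 127 were found on a contig (below). No RNA to DNA ratio is read from them, and the 30 other members are called present below.

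The members with the most DNA reads were CenU 120, CenU 119 and CenU 118, with 983, 956 and 927 reads. Together with CenU 117 (916 reads), CenU 113 (910 reads) and CenU 126 (882 reads) they lay at 1.91 to 2.13 times the median member. In HAC 1-20 RT plus the same 6 codes had 2546 to 3122 reads. CenU 125 and CenU 110 followed with 742 and 725 reads in RT minus. Of the 7 steps between neighbouring present members at which the DNA level changed by at least 1.5-fold, the largest was the fall from CenU 120 to CenU 121 (359 reads), by 2.74-fold. In RT plus CenU 121 had 1169 reads, and this fall was 1.42 on the log2 scale, against 1.45 in RT minus. At the step from CenU 109 to CenU 110 the 2 libraries were further apart, with a rise of 0.91 in RT minus and of 0.52 in RT plus.

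The next question was which members gave more reads with reverse transcriptase than their DNA level accounts for. For each code a log2 ratio of RT plus to RT minus reads was computed with a pseudocount of 0.5 and scaled by the summed NCU reads of each library, which were 2.94 times as many in HAC 1-20 RT plus (612193) as in HAC 1-20 RT minus (208546). RT plus reads include reads from carried-over DNA, so the ratio is not the amount of RNA per copy of DNA. A member was called high at a ratio of at least 1.5-fold with a 95% counting interval above 1, and low at the mirror of this. By this rule 7 of the 30 present members were high, beside 6.73% of all 223 CenU and NCU codes tested, and 0 were low, beside 9.42%. The codes tested include 64 CenU codes that were not in the input of HAC 1-20, which held 5 of the 15 high codes and all 21 low ones. Of the other codes, 3 of the 32 further input CenU codes and 0 of the 96 NCU codes were high. The 7 high members were CenU 104 to CenU 110, an unbroken run.

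CenU 104 went from 462 reads in RT minus to 3349 in RT plus, a 2.47-fold ratio (interval 2.24 to 2.72) and the highest of all members. CenU 105 rose from 441 to 2919 reads, 2.25-fold, and CenU 106 from 454 to 2666 reads, 1.999-fold. CenU 107 rose from 401 to 2606 reads, 2.21-fold, and CenU 108 from 340 to 1978 reads, 1.98-fold. These 5 codes lay at 0.74 to 1.00 times the median member in RT minus and at 1.22 to 2.06 times the median member in RT plus. CenU 109 rose from 386 to 2394 reads, 2.11-fold. CenU 110 rose from 725 to 3422 reads, 1.61-fold (1.48 to 1.74), the smallest ratio of the run at its highest DNA level. In HAC 4-65, the same 7 codes had 2 to 10 reads in RT minus and 6 to 22 in RT plus. Summed over the run, the ratio was 2.05 (1.98 to 2.13), with a mean log2 ratio of 1.05 (SD 0.20 over the 7 codes). At a threshold of 2-fold, 4 members were high (CenU 104, 105, 107 and 109), beside 3.14% of all codes tested, in which the other 3 high codes were CenU codes not in the input.

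The reads of a code in RT plus beyond those that its RT minus reads and the NCU scale account for are called its excess. The excess was 1993 reads for CenU 104 (SE 85.6), 1624 for CenU 105 (SE 81.97) and 1294 for CenU 110 (SE 98.3). It was lowest within the run at CenU 108, with 979.9 reads (SE 70.1). CenU 110 thus had an excess close to those of CenU 109 (1261 reads) and CenU 106 (1333 reads), and its lower ratio stood beside its larger number of DNA reads. The run held 9914 excess reads, 51.3% of its RT plus reads and 88.3% of the excess of all 32 members (11225 reads). These shares rest on the NCU scale, which treats all NCU reads in RT plus as coming from DNA.

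In order of code number, which differs from the contig order given below, the largest steps lay at the edges of the run. CenU 102, the present member before it, had 417 and 1146 reads, a log2 ratio of -0.10 (SE 0.08), and the step from CenU 102 to CenU 104 was 1.40 (SE 0.11). This was the largest of the 29 steps between neighbouring present members, and the code between them is CenU 103, which was nearly without reads. CenU 111 after the run had 543 and 1521 reads, a log2 ratio of -0.07 (SE 0.07), and the step from CenU 110 to CenU 111 was -0.75 (SE 0.09), the second largest. The third largest was the step from CenU 109 to CenU 110 inside the run, at -0.39 (SE 0.10). The fourth, from CenU 111 to CenU 112, was 0.23 (SE 0.11). The counting interval excluded 0 at 1 of the 6 steps within the run and at 2 of the 21 steps outside it.

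The 23 present members outside the run lay close to the NCU scale. Their mean log2 ratio was 0.04, their range -0.15 to 0.16, and their SD 0.08, beside an SD of 0.07 from counting alone. The interval included 1 for 20 of them and lay above 1 for 3 (CenU 112, 120 and 125, named after their values were seen). Over all present members the interval lay above 1 for 10, beside 16.6% of all codes tested, and below 1 for 0, beside 16.1%. Among the 32 further input CenU codes, the interval also lay above 1 for 10. It did so for 5 of the 64 CenU codes not in the input and for 12 of the 96 NCU codes. Of the 36 codes with an interval below 1, 21 were CenU codes not in the input and 15 were NCU codes, so that the 32 further input CenU codes gave 0 as well. The 3 lowest ratios were those of CenU 101 (461 and 1223 reads, log2 ratio -0.15, SE 0.08), CenU 102 (-0.10) and CenU 99 (543 and 1496 reads, -0.09, SE 0.07). These 3 belong to the 6 codes before the run, which summed to a ratio of 0.99 (0.95 to 1.04), while the 17 codes after it summed to 1.04 (1.02 to 1.06).

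The run holds every high member, so codes outside it could not have a high ratio at any DNA level. The values for them describe only the range that this leaves. The 6 codes at 1.91 to 2.13 times the median member, CenU 113, CenU 117 to 120 and CenU 126, had log2 ratios of -0.02 to 0.11. At the 6 DNA steps of at least 1.5-fold outside the run, the log2 ratio changed by at most 0.10. Across the 23 present codes outside the run, Pearson's r between DNA reads and log2 ratio was 0.06 (Spearman's rho -0.08). Over all 30 present codes, the run included, r was -0.33 (rho -0.33). Both are descriptions over codes that share 2 libraries.

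The letters of the codes allowed the run to be set beside codes of nearly the same sequence. Each code of the run has a partner in the other set with the same inner pairs, and the partners of CenU 104 to 110 are CenU 120 to 126. The partners had log2 ratios of -0.02 to 0.15, lower than the run by 0.71 to 1.19 (median 0.96). CenU 104 and CenU 120 differed by 1.19 (SE 0.09), the most of the 7 pairs, and CenU 110 and CenU 126 by 0.71 (SE 0.08), the least. The 7 other pairs with both members present differed by -0.17 to 0.09. Since the run holds every high member, its partners had to be lower, and the pairs are given as a description. The number of G and C letters, 11 to 15 per member, had an r of 0.24 with the log2 ratio across the 23 codes outside the run. Odd and even units outside the run had median log2 ratios of 0.05 and 0.06.

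The order of the codes along the HAC was read from those contig sequences of HAC 1-20 in the study's supplement that were held whole here; further contigs were not used here and may carry more copies. On 1 contig the members CenU 124, 125, 126, 128 and 127 came in this order, followed by a stretch matching plasmid vector sequence. Then came CenU 65, 66 and 67, then CenU 104 to 110, and then NCU 25, 26, 27 and 28, all on 1 strand. On this contig the code before CenU 104 was therefore CenU 67, and the code after CenU 110 was NCU 25. The step at each edge of the run by number lies between codes that were not neighbours on this contig. CenU 103 was not found on the 3 contigs read. As these held only 17 of the 32 members, not being found does not show that a unit is missing from the HAC. CenU 127 was found once, and it was the 1 member position on these contigs that was not followed by the reverse primer's site. Of all 181 code positions 2 lacked this site, and the other was NCU 96. NCU 96 had 21 reads in HAC 1-20 RT minus, or 1.06% of the median NCU code. Whether the missing site bears on the 2 reads of CenU 127 was not tested. As CenU 128 preceded CenU 127 against the order by number, the letters of these 2 units may be exchanged in the list. The reads and the missing primer site belong to the letters printed above for CenU 127, whichever number that unit has.

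Read in contig order, the raised codes began before CenU 104. CenU 126 and CenU 128, ahead of the vector stretch, had log2 ratios of -0.02 and 0.07 (SE 0.06 and 0.08). CenU 65, which is no member, went from 1327 to 6562 reads, a 1.68-fold ratio and an excess of 2667 reads (SE 134). CenU 66 and CenU 67 had ratios of 1.53-fold and 1.69-fold and excesses of 2115 and 1911 reads. On this contig the run CenU 104 to 110 was thus the later part of a block of 10 raised codes that began at CenU 65. The excess, which is not scaled to DNA reads, went from 2667 reads at CenU 65 to 1294 at CenU 110. Its lowest value was 979.9 at CenU 108. CenU 65 to 67 had a lower ratio than CenU 104 beside DNA levels of 941 to 1371 reads. They lay at 288%, 297% and 204% of the median member in RT minus, although each was found at only 1 place on the contigs read. Reads from copies of CenU 65 to 67 on contigs not read here cannot be told apart from reads of this place. The block therefore describes the order of raised codes, and where the excess of CenU 65 to 67 arose is not known.

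Past CenU 110 the ratio dropped, while the excess at the next code was of a similar size. NCU 25, the next code, went from 3164 to 10623 reads, a log2 ratio of 0.19 (SE 0.03) and an excess of 1335 reads (SE 195), close to the 1294 of CenU 110. NCU 26, 27 and 28 had log2 ratios of 0.13, 0.10 and 0.16 (SE 0.03 each) and excesses of 886, 771 and 973 reads (SE 182 to 212). By log2 ratio NCU 25, 28, 26 and 27 ranked 3, 6, 7 and 9 among the 95 present NCU codes, whose median was -0.02 and whose SD was 0.07. NCU 65, 66 and 63, which come later on the same contig, ranked 5, 2 and 1, and NCU 5 and NCU 20, which lie between them, had log2 ratios of -0.04 and 0.03. NCU 57, which ranked 4 with 0.18 (SE 0.06), was not among the codes after the run on this contig. These NCU codes were picked out after their values were seen, several of them lie at more than 1 place in the contigs, and reads from their several places cannot be told apart.

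The second contig with a longer stretch of members ran NCU 32, CenU 117, 118, 119, 120, 113 and NCU 39. These are 5 of the 6 codes at 1.91 to 2.13 times the median member (the other, CenU 126, lies on the first contig), and CenU 120 and CenU 113, which are far apart by number, were neighbours there. Their ratios of 1.02 to 1.08-fold, and log2 ratios of 0.01 for NCU 32 and 0.03 for NCU 39 (SE 0.04 and 0.03), showed no step of the size seen at the run.

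Summed over all 32 members, HAC 1-20 had 17165 reads without and 61613 with reverse transcriptase, that is 82.3 and 100.6 member reads per 1000 NCU reads. The ratio was 1.22 (95% Wald interval 1.201 to 1.245). Without the run the 23 other present members summed to 1.03 (1.01 to 1.05). For comparison, CenU 65 to 96, the other input codes of HAC 1-20, summed to 1.16 (1.14 to 1.18). The members as a whole were thus raised mainly through the run.

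HAC 4-65, whose input held none of these units, gave the background. All 32 members together had 171 (RT minus) and 372 reads (RT plus), beside 587383 and 563758 NCU reads, so that the members were 283-fold higher per NCU read in HAC 1-20 in RT minus (interval 243 to 329) and 153-fold higher in RT plus (138 to 169). Single members had 2 to 10 reads in RT minus, of which the highest were CenU 98, CenU 106 and CenU 113 with 10 reads each. In RT plus they had 3 to 24 reads, and the highest were CenU 118 with 24, CenU 106 with 22 and CenU 113 with 19.

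This background was itself higher with reverse transcriptase. The summed ratio was 2.27 (1.89 to 2.72), and 31 of 32 members had more reads per NCU read in RT plus, CenU 111 being the other one. Of the 29 members with at least 10 reads in both HAC 4-65 libraries together, 8 were at least 1.5-fold higher with an interval above 1, beside 4.98% of the 221 codes tested, and 0 were lower, beside 5.88%. CenU 103, with 2 and 15 reads, had the highest ratio, 6.46-fold (1.70 to 24.6). The L references with the same 32 numbers, which were read as no unit of either input, had 834 and 1465 reads and a ratio of 1.83 (1.68 to 1.99). In HAC 1-20 these L references had 616 and 1815 reads, or 217 and 734 without L 117, which is described below. NCU reads there were 2.94 times as many in RT plus as in RT minus. The reads of a member in HAC 4-65 RT plus had an r of 0.41 with the summed reads of the 4 listed codes 1 base away, and of 0.07 with its reads in HAC 1-20 RT plus, across 32 codes that share primers and libraries. Between the RT minus libraries the same values of r were 0.41 and 0.24. In HAC 4-65 the run of CenU 104 to 110 did not stand out: its summed ratio was 2.29 (1.54 to 3.42), on 35 and 77 reads.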

How the data were processed

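PC reads of 4 libraries were used, 1 per group: RT minus and RT plus of HAC 1-20 and of HAC 4-65. Per the study's methods, the authors used cutadapt 4.0 for trimming, bowtie for matching reads to the code sequences and samtools idxstats for counting. What they deposited are raw counts per reference, with no normalization. The mismatch setting of bowtie is not given in the sources used here. Unmatched reads, 6.19% to 7.54% per library, were left out. Competitive PCR gives proportions of codes, not amounts.

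Ratios of RT plus over RT minus used a pseudocount of 0.5 and were scaled by summed L 1 to 96 reads, for codes with at least 10 reads in both libraries together. SE and 95% intervals follow from Poisson counting. Codes under 20% of the median member in RT minus were left out of steps, runs and summaries of present members. Sums over all 32 members include them. A run is at least 2 neighbouring present codes past 1.5-fold. The codes named were every member of a run and the present member on each side, members under the 20% limit, the 3 highest and 3 lowest ratios, the 3 highest DNA levels, the 3 highest in each HAC 4-65 library, and the partners of the run; others are named as chosen after their values were seen or for their place on a contig. The members, lists and rules were chosen with earlier results of these data known. Code letters and their order came from the supplement's sequences, of which contigs cut short were not used. The calculation was tested on simulated data. Python 3.11.15, numpy 2.4.6 and scipy 1.17.1 were used. Alternatives covered the pseudocount, minimum, scaling, background, thresholds and reference level.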

Additional observations from a re-analysis of the deposited data

Results flagged for a closer look

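Signal appeared at 1 reference outside the comparisons. L 117, whose number lies above the 96 L references read as NCU codes, had 399 (RT minus) and 1081 reads (RT plus) in HAC 1-20. The other 31 L references with the members' numbers had 1 to 14 and 9 to 52 reads in these libraries. In HAC 4-65, L 117 had 33 and 50 reads, within the range of the other 31. Its RT plus over RT minus ratio in HAC 1-20 was 0.92-fold (0.82 to 1.03). CenU 117, the member with the same number, had 916 and 2742 reads in HAC 1-20. The letters of L 117 are not in the list of codes used here, and the cause was not tested.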

How the results depend on the processing

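No paired analysis was possible because there was a single library per group, so that no replicate could be left out. Of 79 alternatives over 12 results, 70 kept their value within the main counting interval, or within 1.5 times for counts. Some of these 70 could not have differed, so their number is not a measure of robustness. A change of scale cancels in the step at each edge of the run, which is a difference between log2 ratios. Dropping the minimum of 10 reads could not alter the calls, as each present member had at least 340 reads in HAC 1-20 RT minus. Scaling to the reads of the input CenU codes, which include the run itself, ended the run at CenU 109 instead of CenU 110, gave a mean log2 ratio of 0.81 for the run and turned that of the 23 present members outside it to -0.21. Scaling to all T and L references gave 0.0037 for the mean outside the run and 1.19 for the summed ratio of HAC 1-20. That ratio was 1.108 without the members past 2-fold. At a threshold of 2-fold 4 members were high and the longest run ended at CenU 105, and at a threshold of 2 times the median member 3 codes had a high DNA level. The alternatives for the mean of the run and of the codes outside it were added after the data were seen. For 14 results on single codes, 55 of 72 alternatives kept the value and 0 turned its direction; 11 of the 17 that moved were under scaling to input CenU reads. Depth limits CenU 103, CenU 127 and all members in HAC 4-65, where ratios rest on 2 to 24 reads per library.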
